A study of Mus musculus with 9 samples.

Results

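Immediate early genes were followed across 9 libraries of mouse retina. The group held 39 genes, taken by symbol from a list of AP-1, EGR, NR4A, KLF, feedback and related genes that was drawn up with earlier results of these data known, out of 25108 entries of the deposited table. All retinas came from C57BL/6 mice at postnatal day 17, and the libraries fell into 3 groups of 3. RA WT retinas were wild type and came from room air. OIR WT retinas were wild type and came from oxygen-induced retinopathy, and OIR KO retinas came from IL-19 knockout mice with the same retinopathy. In this model newborn pups breathe high oxygen, which prunes the retinal vessels, and on return to room air the poorly perfused retina becomes hypoxic and grows abnormal new vessels. No knockout library from room air was analysed here, and the sources used here do not describe the Il19 allele. Il19 was listed at 0 in every library except RA WT 1 (0.0406 FPKM), so its level does not check the genotype labels. Since the labels do not tie the libraries of a group to separate animals, the p-values cover only the spread among these libraries, part of which may be technical. In OIR WT all of it may be. The 4 Y-linked genes examined were at 0 in RA WT 2 and OIR KO 1 but not in the rest of their groups. Those groups therefore drew on different animals, though not each library need be a separate one.

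Immediate early genes are transcribed within minutes of a stimulus without new protein synthesis, when MAP kinase and calcium signalling act on factors already bound at their promoters, such as SRF with its ELK partners and CREB. FOS and JUN proteins pair through leucine zippers to form the AP-1 factor, and ATF3 and the small MAF proteins are zipper proteins of the same class. The response is brief because it also induces its own brakes, among them the MAP kinase phosphatases of the DUSP family and the mRNA decay factor ZFP36. In the retina these genes respond to light, neuronal activity, injury and hypoxia, and are expressed in neurons, Müller glia and vascular cells alike.

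Promoter sequences of the members are shown first, since SRF, CREB and EGR factors act at such promoters. The RefSeq table of GRCm38.p6 held a promoter for 31 of the 39 members, and the window was the 250 bases before the start, with positions counted back from it. Fos, Nr4a1, Junb and Cyr61 are shown because they are members of 4 families described below and hold the CRE core, the binding sequence of CREB, Dusp5 because it held a pair of adjacent CArG boxes, and Dusp1 for its full CRE. The Fos window is chr12:85473640-85473889 on the plus strand, that of Nr4a1 is chr15:101266596-101266845 on the plus strand, that of Junb is chr8:84978749-84978998 on the minus strand and that of Cyr61 is chr3:145649986-145650235 on the minus strand. The windows of Nr4a1 and Dusp1 lie inside the longer spans that GENCODE gives these genes. The stretches of Dusp5, chr19:53528895-53529108 on the plus strand, and of Dusp1, chr17:26508520-26508722 on the minus strand, stop where a GENCODE exon begins. Each is written 5′ to 3′ on the gene's own strand, and capitals mark the CRE core TGACG (or CGTCA, its other strand), the full CRE TGACGTCA and the CArG boxes.
Fos: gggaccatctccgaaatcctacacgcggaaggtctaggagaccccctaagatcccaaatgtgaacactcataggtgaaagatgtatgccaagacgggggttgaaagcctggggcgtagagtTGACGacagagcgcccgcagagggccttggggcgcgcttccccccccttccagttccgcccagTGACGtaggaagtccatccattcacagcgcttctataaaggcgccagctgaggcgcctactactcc
Nr4a1: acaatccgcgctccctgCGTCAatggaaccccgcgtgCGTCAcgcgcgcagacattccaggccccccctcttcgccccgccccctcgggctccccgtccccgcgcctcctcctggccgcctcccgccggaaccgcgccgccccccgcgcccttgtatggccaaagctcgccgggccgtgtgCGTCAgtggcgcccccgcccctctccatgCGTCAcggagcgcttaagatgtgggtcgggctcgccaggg
Junb: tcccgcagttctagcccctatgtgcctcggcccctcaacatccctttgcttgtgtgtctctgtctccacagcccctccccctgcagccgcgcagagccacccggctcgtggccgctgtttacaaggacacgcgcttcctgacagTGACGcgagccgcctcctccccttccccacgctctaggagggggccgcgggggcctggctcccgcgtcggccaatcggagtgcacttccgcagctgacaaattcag
Cyr61: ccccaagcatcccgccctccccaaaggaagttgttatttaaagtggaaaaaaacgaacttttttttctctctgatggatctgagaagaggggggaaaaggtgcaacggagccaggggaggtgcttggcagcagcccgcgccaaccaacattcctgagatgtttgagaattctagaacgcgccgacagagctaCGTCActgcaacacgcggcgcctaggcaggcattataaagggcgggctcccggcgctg
Dusp5: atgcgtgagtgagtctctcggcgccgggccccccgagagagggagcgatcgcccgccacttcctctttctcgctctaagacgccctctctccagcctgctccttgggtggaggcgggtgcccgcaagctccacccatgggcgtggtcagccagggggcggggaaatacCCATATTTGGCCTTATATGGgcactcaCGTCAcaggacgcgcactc
Dusp1: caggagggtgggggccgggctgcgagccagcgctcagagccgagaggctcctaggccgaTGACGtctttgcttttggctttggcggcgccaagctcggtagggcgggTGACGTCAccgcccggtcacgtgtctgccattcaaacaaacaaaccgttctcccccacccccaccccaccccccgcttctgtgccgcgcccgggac

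In Fos the CRE core began at -129 and again at -66, upstream of a TATAAA at -33. Nr4a1 held 4 matches, all on the other strand, and Junb and Cyr61 held 1 each, beginning at -106 and spanning -58 to -54. The pair of CArG boxes in Dusp5, the binding sequence of SRF, lay at -82 to -73 and -72 to -63. The CRE core was found on either strand in 18 of 31 member promoters (58.1%), against 17.8% of all 27025 promoters in the table and 26.4% of the 10844 whose genes were tested here. The EGR motif GCGNGGGCG stood in 12 members (38.7%), against 4.63% of all promoters and 8.98% of those tested. GC boxes (GGGCGG), which can overlap the EGR motif, stood in 24 members (77.4%) against 33.0% and 58.9%. The full CRE, which contains the CRE core on both strands, stood in 2 members (Dusp1 and Btg2, 6.45%) against 1.60% and 2.73%. The CArG box, CC and GG around 6 A or T, also stood in 2 (Dusp5 and Zfp36) against 1.41% and 1.14%. Sites farther upstream than 250 bases were not searched. The 8 members without a promoter in the table, Fosl1, Egr1, Egr3, Klf10, Dusp4, Ier2, Arc and Ctgf, were not searched at all. TATAAA was present in 5 members (16.1%), against 13.0% of all promoters and 6.26% of those tested, and the AP-1 motif TGANTCA in 0, against 6.85% and 3.86%. The members' windows had a median GC content of 65.2%, those of tested genes 60.0% and all windows 52.0%, and these motifs differ in base composition, so the shares are descriptions only.

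Of the 39 genes, 38 reached 0.5 FPKM in at least 3 of the 9 libraries and were tested. FPKM is a level per gene length and per mapped fragments, so levels can be set beside each other across genes. Nr4a3 was not tested, with 0.224 to 0.438 FPKM across the libraries. Egr2, Egr3 and Dusp2 entered the test only through retinopathy libraries, being below 0.5 FPKM in all RA WT libraries. Differences are given on log2(FPKM + 0.5), which understates the change of low genes, with the standard error and the limma adjusted p. A gene was called risen or fallen at an adjusted p under 0.05. In whole tissue, a change in the number of cells of a type and a change in RNA per cell cannot be told apart.

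In retinopathy 23 of the 38 genes rose in OIR WT against RA WT and 0 fell, where 16.0% of the 15678 tested genes were called, 8.04% being higher and 7.92% lower. The median difference over the 38 was 0.93 on the log2 scale, beside 0.02 over all tested genes, and 15 of the risen genes at least doubled on that scale. The groups did not overlap, with OIR WT higher, in 27 members (17.8% of all genes) and, with OIR WT lower, in 1, Nr4a2 (17.2% of all genes). By role, 3 of 4 FOS, 2 of 3 JUN, 3 of 4 EGR and 6 of 7 IER and growth arrest genes rose, and 1 of 4 KLF, 4 of 7 feedback and 0 of 2 neuronal activity genes. Of the 23 calls, 16 held in every alternative in which the gene was tested, and 7 (Klf10, Btg2, Dusp5, Zfp36, Gadd45b, Csrnp1 and Egr1) were lost in some. Of the 16, Egr3 and Dusp2 were not tested under the stricter filter of 1 FPKM in 3 libraries. Egr2, Egr3 and Dusp2 are among the 23 and the 16, but passed the filter only through retinopathy libraries. Their calls are therefore not independent of the filter.

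**Figure D1:**
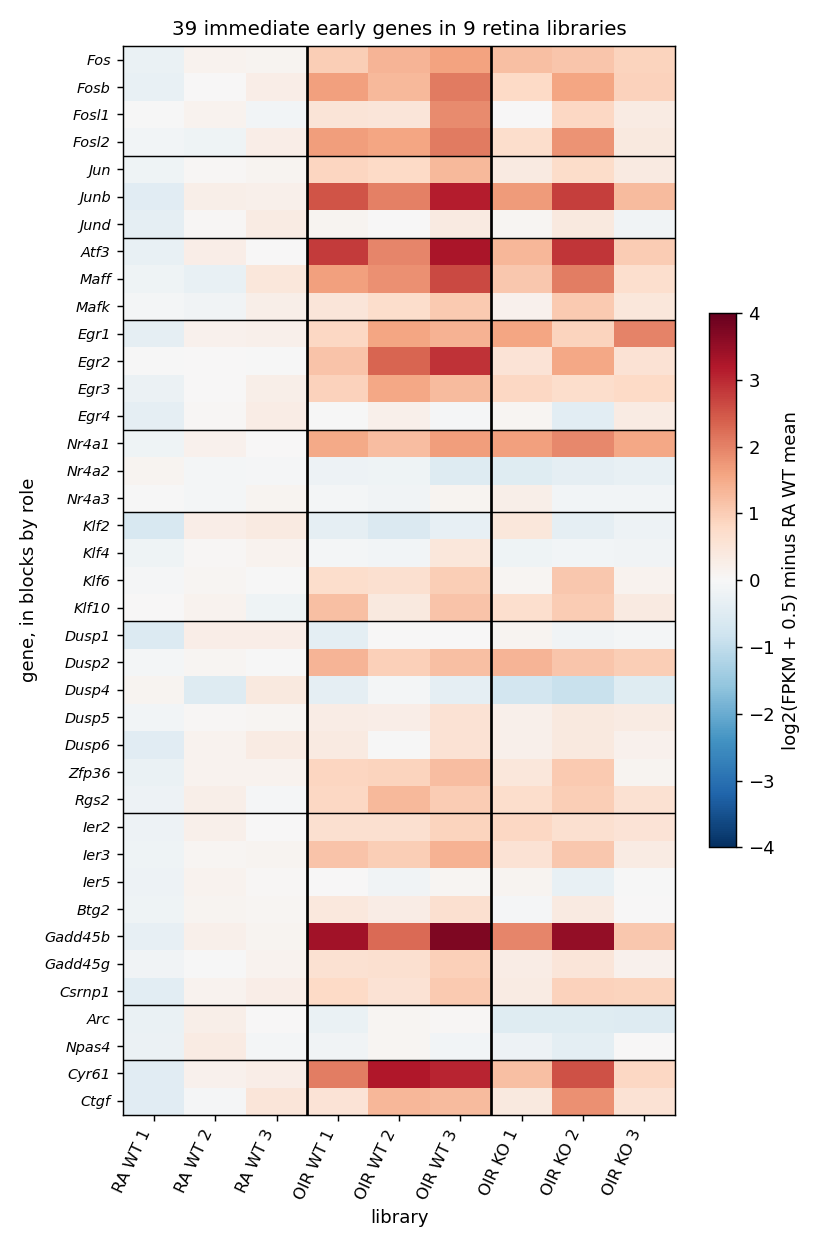
Heat map of the 39 genes (rows, in blocks by role) in the 9 libraries (columns, by group), coloured by log2(FPKM + 0.5) minus the RA WT mean. Junb, Atf3, Gadd45b and Cyr61 are darkest in the OIR WT libraries and in OIR KO 2, and the rows of Jund, Egr4, Dusp1, Ier5 and Npas4 stay pale throughout.

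Within the FOS family, Fos, the founding AP-1 subunit on chromosome 12 (chr12:85473890-85477273, GRCm38), was at 14.7, 19.7 and 19.5 FPKM in RA WT libraries 1 to 3, at 35.5, 46.2 and 55.3 in OIR WT and at 42.0, 39.0 and 33.6 in OIR KO. Every retinopathy library stood above every room air library, and those of the 2 retinopathy groups overlapped. The OIR WT difference was 1.31 ± 0.17 (SE, n = 3 a group, adjusted p = 0.00243). Fosb, which also yields a stable truncated splice form, rose by 1.67 ± 0.26 from 0.785 ± 0.242 to 3.65 ± 1.14 FPKM (mean ± SD, n = 3; adjusted p = 0.00433). Fosl2, which encodes FRA-2, was at 1.19, 1.12 and 1.71 FPKM in RA WT, at 5.27, 4.91 and 7.14 in OIR WT and at 2.44, 5.86 and 1.89 in OIR KO, and rose in OIR WT by 1.77 ± 0.33 (adjusted p = 0.00877). Fosl1, which encodes FRA-1, was the FOS gene that was not called (0.96 ± 0.36, adjusted p = 0.105). Its OIR WT mean rested on library 3, at 8.39 FPKM beside 2.92 and 2.89. Fosl1 also shares 57.2% of its exon bases with Ccdc85b on the other strand, a gene at 48.7 to 71.0 FPKM, and since no source used here gives the strand setting of the counting, its level is uncertain.

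The JUN family split by member. Junb, a JUN protein that often restrains JUN activity, was at 8.85, 14.6 and 14.1 FPKM in RA WT, at 72.7, 51.3 and 112 in OIR WT and at 41.0, 86.1 and 30.1 in OIR KO. All 6 retinopathy libraries lay above room air, and the means of OIR WT and RA WT stood 6.29-fold apart (log2 2.57 ± 0.42, adjusted p = 0.00744). Junb shares 7.5% of its exon bases with Prdx2 on the other strand, a gene at 86.5 to 110 FPKM. Since the strand setting is not given, the room air level of Junb is uncertain. Jun, the principal transactivating partner of FOS, was at 20.1, 23.4 and 24.3 FPKM in RA WT, at 41.1, 39.8 and 56.2 in OIR WT and at 29.2, 37.8 and 29.2 in OIR KO. The 3 groups of Jun did not overlap at all, with OIR KO between the other two, and OIR WT stood above RA WT by 0.99 ± 0.15 (adjusted p = 0.00414). Jund, the JUN protein expressed steadily in most cells, was the most abundant AP-1 gene in room air, at 69.0 to 111 FPKM, and its difference was 0.17 with a 95% interval from -0.26 to 0.59. Jund shares 52.6% of its exon bases with an annotated antisense gene, Gm11175, which was not used here.

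Among the zipper proteins that pair with these factors, Atf3, a stress-induced factor of the ATF family (chr1:191170296-191218039), was at 1.32, 2.15 and 1.74 FPKM in RA WT, at 14.9, 8.15 and 20.9 in OIR WT and at 5.03, 15.5 and 3.94 in OIR KO. Its OIR WT level was 8.43 times that of room air (2.68 ± 0.50, adjusted p = 0.0110). Maff, a small MAF protein without a transactivation domain, rose by 2.03 ± 0.38 (adjusted p = 0.0101) from 1.30 ± 0.508 to 7.03 ± 2.92 FPKM. Mafk, another small MAF, was higher in all OIR WT libraries (4.06 to 6.15 FPKM) than in RA WT (2.43 to 3.28), and narrowly missed the threshold (0.74 ± 0.23, adjusted p = 0.0526). Mafk was called with only the 6 libraries of the comparison (adjusted p = 0.0260) and without OIR KO 1 (0.0435) or OIR KO 2 (0.0185). Its difference stayed at 0.74 in these fits, which changed only the estimate of the spread. In the other 7 fits with 1 library left out it was not called (adjusted p up to 0.165).

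Of the EGR zinc finger factors, Egr1, the most widely used activity marker of the family, was at 10.5, 15.5 and 15.8 FPKM in RA WT, at 24.7, 41.7 and 36.7 in OIR WT and at 41.6, 25.8 and 55.8 in OIR KO. It rose in OIR WT by 1.26 ± 0.30 (adjusted p = 0.0256), a call lost when any 1 RA WT library, OIR WT 2 or OIR WT 3 was left out (adjusted p from 0.0550 to 0.0819). Egr2, which is also known from myelination, was near 0 in room air, at 0.0312, 0.0386 and 0.0296 FPKM, and was at 0.683, 2.18 and 3.47 in OIR WT and 0.283, 1.06 and 0.300 in OIR KO. The 3 OIR WT libraries differed widely among themselves, and all were above every RA WT library (2.13 ± 0.42, adjusted p = 0.0110). Egr3 rose from 0.210 ± 0.114 to 1.20 ± 0.357 FPKM (1.25 ± 0.19, adjusted p = 0.00422). Egr4 was at 0.278 to 0.821 FPKM in all libraries with no separation of the groups (0.06, 95% interval -0.47 to 0.58).

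The NR4A genes encode orphan nuclear receptors that act without a known natural ligand. Nr4a1 (chr15:101254269-101274795) was at 21.6, 27.4 and 24.7 FPKM in RA WT, at 71.0, 57.9 and 78.9 in OIR WT and at 76.7, 94.6 and 71.8 in OIR KO. The spread within each group was small beside the gap to room air, and the OIR WT difference of 1.47 ± 0.14 had the smallest adjusted p of the members (0.000697). Nr4a2, a dopaminergic and neuronal factor, was lower in all OIR WT libraries (1.59 to 2.14 FPKM) than in RA WT (2.34 to 2.72) without being called (-0.29 ± 0.14, adjusted p = 0.186).

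Of the KLF zinc finger genes 1 of 4 rose. Klf10, a TGF-beta induced repressor, rose from 4.38 ± 0.558 to 8.84 ± 2.63 FPKM (0.90 ± 0.23, adjusted p = 0.0294), and the call was lost when any 1 of RA WT 1, 2 and 3 or OIR WT 1 and 3 was left out (adjusted p from 0.0589 to 0.108). Klf6, an injury-induced KLF, did not overlap between the groups, at 6.00 to 6.66 FPKM against 10.1 to 12.8, and missed the threshold (0.77 ± 0.24, adjusted p = 0.0553). Klf6 was called with only the 6 libraries of the comparison (adjusted p = 0.00508) and without OIR KO 1 (0.0489) or OIR KO 2 (0.00234). Its difference stayed at 0.77 in these fits, which changed only the estimate of the spread. In the other 7 fits with 1 library left out it was not called (adjusted p up to 0.159). The shear stress gene Klf2 (-0.43, 95% interval -1.08 to 0.21) and Klf4 (0.09, 95% interval -0.31 to 0.48) were not called.

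Among the 7 feedback genes 4 rose. Dusp2, a nuclear MAP kinase phosphatase, was at 0.0572, 0.124 and 0.0814 FPKM in RA WT, at 0.991, 0.643 and 0.838 in OIR WT and at 1.01, 0.761 and 0.658 in OIR KO, low levels with a clear gap (1.17 ± 0.17, adjusted p = 0.00333). Rgs2, which limits signalling through Gq-coupled receptors, rose from 13.8 ± 2.29 to 28.9 ± 4.71 FPKM (1.04 ± 0.15, adjusted p = 0.00339). Zfp36 rose by 0.99 ± 0.23 (adjusted p = 0.0191), and lost its call without RA WT 1, OIR WT 1 or OIR WT 3 (adjusted p from 0.0508 to 0.0706). Dusp5, a nuclear ERK phosphatase, rose by 0.38 ± 0.11 (adjusted p = 0.0373), from 17.2 ± 1.16 to 22.6 ± 2.89 FPKM, and lost its call without any 1 of RA WT 1, 2 and 3, OIR WT 1 and 3 and OIR KO 3 (adjusted p from 0.0520 to 0.120). It shares 22.1% of its exon bases with an antisense gene not used here, so its level is uncertain. Dusp1, the most widely studied immediate early phosphatase, was at 10.2 to 18.3 FPKM in RA WT and 11.3 to 15.2 in OIR WT, groups that overlapped (-0.12, 95% interval -0.60 to 0.35). The ERK phosphatases Dusp4 (-0.26, 95% interval -0.74 to 0.22) and Dusp6 (0.31, 95% interval -0.14 to 0.76) were not called.

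The growth arrest and IER genes rose in 6 of 7 cases. Gadd45b, a stress sensor that activates p38 and JNK kinases upstream (chr10:80930073-80932204), had the largest difference of the members on log2(FPKM + 0.5), while with a pseudocount of 0.1 that of Egr2 was larger (3.80 against 3.26). It was at 2.52, 3.94 and 3.66 FPKM in RA WT, at 38.7, 17.9 and 50.5 in OIR WT and at 14.3, 43.3 and 7.63 in OIR KO. OIR WT 2 was the lowest wild-type retinopathy library and OIR KO 2 the highest knockout library, and the OIR WT difference was 3.12 ± 0.60 (adjusted p = 0.0131, and 0.0511 without OIR WT 1). Ier3, a regulator of apoptosis with the highest room air level of the members after Jund, was at 45.1, 54.1 and 55.5 FPKM there and at 114, 101 and 136 in OIR WT (1.17 ± 0.18, adjusted p = 0.00449). Gadd45g rose by 0.73 ± 0.13 (adjusted p = 0.00647) and Ier2, a short nuclear protein gene without introns, by 0.73 ± 0.12 (adjusted p = 0.00595). Btg2, an antiproliferative cofactor of mRNA deadenylation, was called at 0.45 ± 0.14 (adjusted p = 0.0494) and lost the call without any 1 of 7 libraries (RA WT 1, 2 and 3, OIR WT 1 and 3, OIR KO 1 and 3, adjusted p from 0.0588 to 0.158). Csrnp1, an AXIN-induced nuclear protein gene, was called at 0.79 ± 0.23 (adjusted p = 0.0421) and lost the call without any 1 of 6 libraries (RA WT 1, 2 and 3, OIR WT 1 and 3, OIR KO 3, adjusted p from 0.0503 to 0.136). Ier5 was at 6.60 to 8.52 FPKM in RA WT and 6.98 to 8.17 in OIR WT (-0.01, 95% interval -0.31 to 0.30).

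The neuronal activity genes gave no call. Arc, whose product acts at the synapse, was at 0.564, 1.01 and 0.775 FPKM in RA WT and 0.552, 0.830 and 0.800 in OIR WT, with overlapping groups (-0.06, 95% interval -0.44 to 0.33). Npas4, a calcium-induced neuronal transcription factor, differed by -0.05 (95% interval -0.45 to 0.34). Cyr61 and Ctgf encode matricellular CCN proteins that are targets of YAP and TAZ. Cyr61 (chr3:145646976-145649981) was at 1.70, 2.89 and 3.12 FPKM in RA WT, at 12, 27.3 and 24.2 in OIR WT and at 6.37, 17.0 and 4.82 in OIR KO. Its lowest OIR WT library was 12 against a highest RA WT library of 3.12 (2.77 ± 0.48, adjusted p = 0.00877). Ctgf was higher in all OIR WT libraries without being called (1.05 ± 0.41, adjusted p = 0.125), and its level is uncertain because 23.2% of its exon bases are shared with Gm15270 on the other strand. Without OIR KO 2, Ctgf was called (adjusted p = 0.0329) with its difference unchanged at 1.05. In the other 8 fits with 1 library left out it was not called (adjusted p up to 0.2655).

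**Figure D2:**
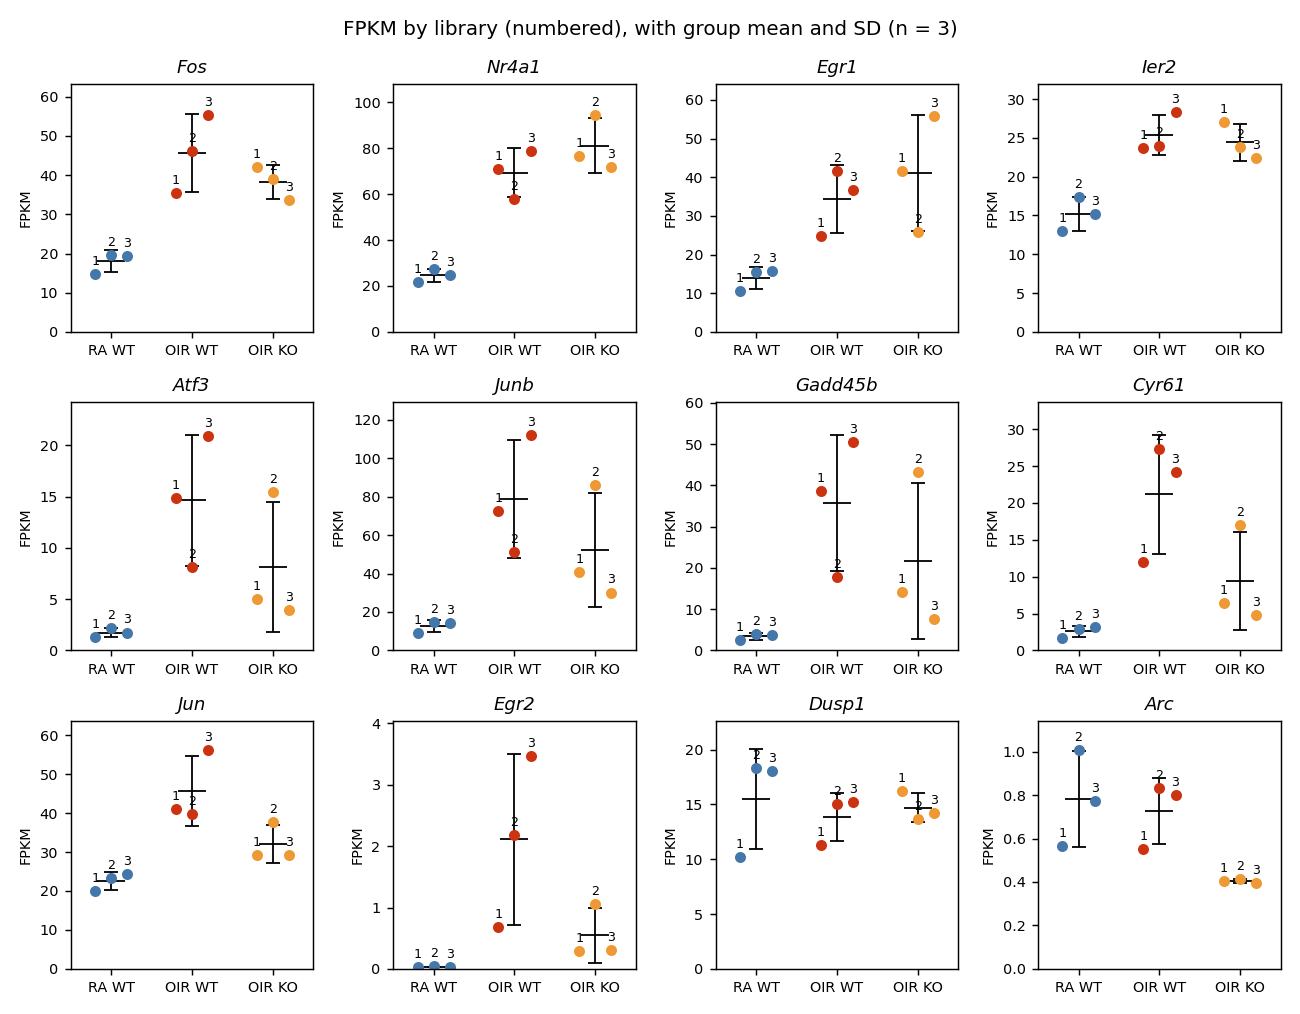
FPKM (linear axes from 0) of 12 member genes in each library, as numbered points by group, with the group mean and SD (n = 3). Fos, Nr4a1 and Ier2 stand at like levels in all retinopathy libraries, Atf3, Junb, Gadd45b and Cyr61 have OIR KO 1 and 3 low and OIR KO 2 high, and Dusp1 shows overlapping groups.

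Markers of cell types also differed between the groups. The summed level of 5 erythrocyte genes was 82.5 to 158 FPKM in RA WT and 512 to 1431 in OIR WT, all 5 having risen, and it was 112, 1070 and 113 FPKM in OIR KO libraries 1 to 3. The 4 astrocyte markers, chiefly Gfap, the glial filament gene that marks reactive glia, summed to 16.1 to 26.7 FPKM in RA WT, to 135, 54.7 and 157 in OIR WT libraries 1 to 3 and to 54.8, 182 and 32.3 in OIR KO. Gfap carried this sum, with 2 of the list's 3 tested genes (Gfap and Pdgfra) risen and S100b fallen (-0.62 ± 0.14, adjusted p = 0.0179). In both lists OIR WT 2 was the lowest wild-type retinopathy library and OIR KO 2 the highest knockout library, as for Junb, Atf3 and Gadd45b. Not all risen members shared this order within OIR WT. Cyr61 was highest in OIR WT 2 (27.3 FPKM), and Egr2 (0.683) and Maff (4.94) were lowest in OIR WT 1. The 7 Müller glia markers were lower in retinopathy, from 1322 to 1720 FPKM in RA WT to 564 to 913 in OIR WT, 5 having fallen and 1 risen, with 803 to 1173 in OIR KO. Microglia and macrophage markers (4 of 8 risen) summed to 11.9 to 15.2 FPKM in RA WT, 32.4 to 45.4 in OIR WT and 26.4 to 39.8 in OIR KO. Endothelial markers (4 of 8 risen) summed to 68.6 to 94.1, 92.5 to 123 and 121 to 156 FPKM, and pericyte and smooth muscle markers (5 of 7 risen) to 41.8 to 55.6, 98.5 to 146 and 79.1 to 131 FPKM. Of the neurons, retinal ganglion cell markers (5 of 7 fallen) summed to 448 to 564 FPKM in RA WT, 271 to 316 in OIR WT and 184 to 287 in OIR KO. Amacrine markers (3 of 6 fallen) summed to 279 to 292, 179 to 206 and 174 to 222 FPKM, and bipolar markers (2 of 6 fallen) to 528 to 612, 417 to 473 and 471 to 589 FPKM. None of the genes in these lists was at 0, and their part in the results was not tested. The rod markers that define the tissue summed to 7502 to 10851 FPKM in every library. The 6 lens markers summed to 36.2 FPKM in RA WT 1 and 21.0 in OIR KO 2 and to at most 5.42 in the other libraries. Of the 9 libraries, RA WT 2 and OIR KO 1 had the 4 Y-linked genes examined at 0, and their sum was 32.9 FPKM in RA WT 3 and 48.1 to 64.4 in the other 6.

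OIR KO against OIR WT compares the genotypes within retinopathy, and other differences between the animals cannot be told apart from genotype. Here 0 of 38 genes were called by limma, where 0.134% of all tested genes (21) were called, 0.0574% higher and 0.0765% lower. At an unadjusted p under 0.05 there were 9, all lower in the knockout (Fosl2, Jun, Egr2, Egr3, Ier3, Btg2, Gadd45g, Arc and Cyr61), where 9.91% of all genes passed and 4.75% passed lower. The difference was negative in 34 of 38 members, beside 50.7% of all tested genes, with a median of -0.26 beside -0.003. Egr1 (0.22), Nr4a1 (0.23), Klf2 (0.40) and Dusp1 (0.09) were the 4 positive values. The lowest adjusted p of any member was 0.337, and over all the alternatives it was 0.0650, for Fosl2 without OIR KO 2.

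Several members that had risen most had wide intervals. Cyr61 differed by -1.25 (95% interval -2.35 to -0.15), Egr2 by -1.23 (-2.17 to -0.29), Atf3 by -0.95 (-2.10 to 0.19), Gadd45b by -0.94 (-2.32 to 0.45) and Junb by -0.65 (-1.62 to 0.32). With 1 library left out Gadd45b ranged from -1.60 to -0.39, Atf3 from -1.52 to -0.59, Cyr61 from -1.76 to -0.90, Egr2 from -1.72 to -0.84 and Junb from -1.08 to -0.33, uncalled in each case. Narrower intervals were those of Fos (-0.24, -0.62 to 0.14), Ier2 (-0.05, -0.33 to 0.23), Dusp2 (-0.02, -0.39 to 0.36) and Nr4a1 (0.23, -0.10 to 0.55). Groups that did not overlap, with OIR KO lower, were found for Jun, Egr3, Dusp4, Gadd45g and Arc, 5 of 38, where 7.98% of all genes did the same, and with OIR KO higher in 0, where 9.73% of all genes did. Arc was at 0.405, 0.412 and 0.395 FPKM in OIR KO, below the lowest OIR WT library at 0.552, and differed by -0.43 (-0.82 to -0.05, adjusted p = 0.450). Gadd45g was at 19.6, 19.8 and 25.2 FPKM in OIR WT and 15.5, 18.0 and 14.2 in OIR KO (-0.42, -0.71 to -0.14, adjusted p = 0.337).

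**Figure D3:**
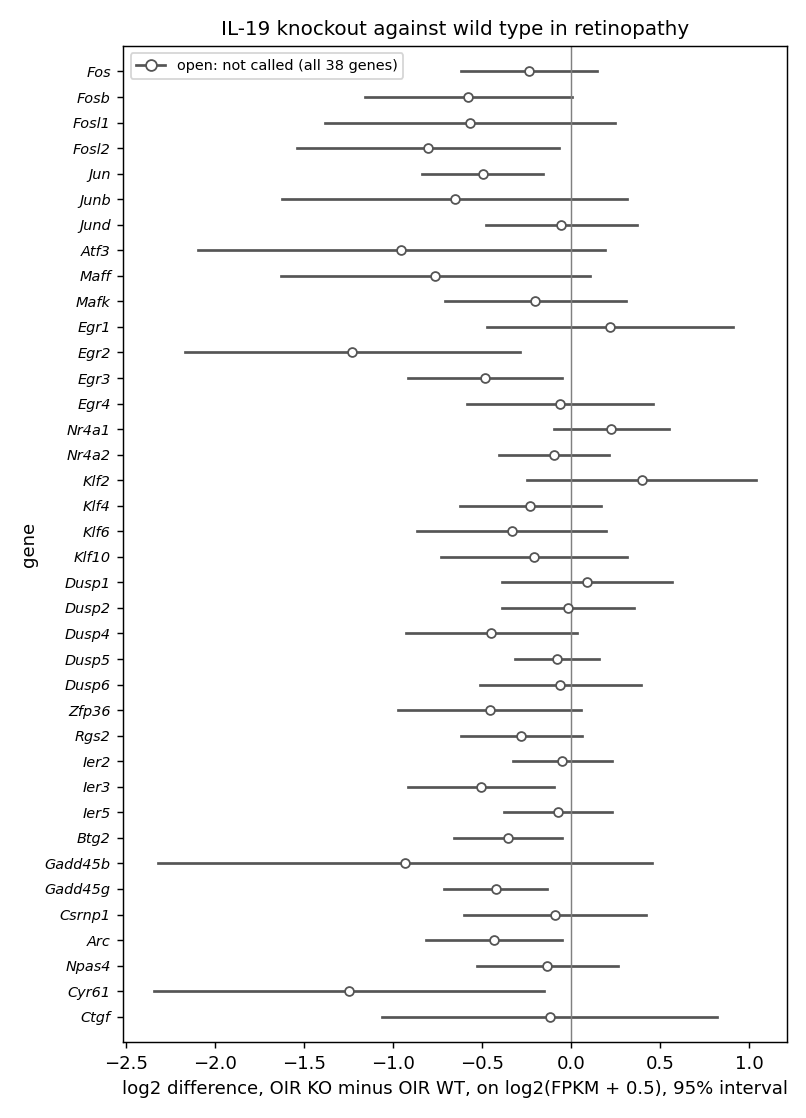
Difference of OIR KO from OIR WT for the 38 tested genes, on log2(FPKM + 0.5), as points with 95% intervals. Most points lie left of 0 (34 of 38), the intervals of Gadd45b, Cyr61 and Atf3 are the widest, and none of the genes was called.

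The knockout libraries did not form one level. OIR KO 2 was the highest of the 3 in 26 of 38 members, against 37.6% of all tested genes, a description made after the values were seen. In 16 members OIR KO 1 and OIR KO 3 lay below every OIR WT library while OIR KO 2 lay within or above the OIR WT range, against 8.29% of all genes. The 16 were Fosb, Fosl1, Fosl2, Junb, Atf3, Maff, Mafk, Egr2, Klf4, Klf6, Zfp36, Rgs2, Ier3, Btg2, Gadd45b and Cyr61. Some met this by little, as Klf4 was at 1.0127, 1.0638 and 1.0234 FPKM in OIR KO libraries 1 to 3, beside 1.0596 in OIR WT 2. In 14 members OIR KO 2 was at least 1.5 times the mean of OIR KO 1 and 3, against 8.68% of all genes. In 8 members OIR KO 2 was instead the lowest knockout library (Egr1, Egr3, Egr4, Klf2, Dusp1, Dusp4, Ier5 and Npas4), against 37.2% of all genes, with Egr1 at 25.8 FPKM there. The median member lay above its RA WT mean by 0.74, 0.67 and 1.08 in OIR WT libraries 1 to 3 and by 0.43, 0.90 and 0.36 in OIR KO libraries 1 to 3. Erythrocyte and astrocyte sums were likewise highest in OIR KO 2 among the knockout libraries, as given above. So were the endothelial (156 FPKM), pericyte (131), microglia (39.8) and lens (21.0) sums. Müller glia (803), ganglion cell (184), amacrine, bipolar, rod and cone sums were lowest there. On the first principal component of all tested genes, OIR KO libraries 1 to 3 stood at 7.96, 32.5 and -3.3. OIR WT libraries stood at 28.9, 11.7 and 31.3. OIR KO 2 thus stood apart in more than the members, and the cause was not tested. Without OIR KO 2 the median member difference from OIR WT was -0.41, 0 members were called and the calls over all genes went from 21 to 42.

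OIR KO was also compared with RA WT, a comparison in which genotype and treatment change together and which shares the RA WT libraries with the first one. Here 10 members rose and 0 fell, where 10.4% of all tested genes were called, 4.75% being higher and 5.69% lower, and the median was 0.60 beside 0.02. The 10 were Fos (1.07 ± 0.17), Fosb (1.09 ± 0.26), Junb (1.91 ± 0.42), Egr1 (1.48 ± 0.30), Egr3 (0.76 ± 0.19), Nr4a1 (1.70 ± 0.14), Dusp2 (1.15 ± 0.17), Rgs2 (0.76 ± 0.15), Ier2 (0.68 ± 0.12) and Ier3 (0.66 ± 0.18). Their limma adjusted p ran from 0.000868 for Nr4a1 to 0.0496 for Ier3. Fos, Nr4a1 and Ier2 held in every alternative run, and Dusp2 in every one except the stricter filter, under which it was not tested. Egr3 and Dusp2 had passed the main filter only through retinopathy libraries. Rgs2 lost its call without RA WT 3 or OIR KO 2 (adjusted p up to 0.0564), Egr1 without RA WT 1, RA WT 3 or OIR KO 1 (up to 0.0672), and Fosb without OIR KO 2 or any 1 room air library (up to 0.0856). Junb lost it without OIR KO 1, OIR KO 2 or any 1 room air library (up to 0.0741), Egr3 in every such fit but those without OIR WT 1 or OIR WT 2 (up to 0.0994), and Ier3 in every one but that without OIR KO 3 (up to 0.126). With all libraries kept, Ier3 also lost its call in 7 of the other alternatives (adjusted p up to 0.0908). Egr3 did so in 2 (up to 0.0732) and Junb with the replicate block (0.0583). Leaving out RA WT 1 gave 5 called members, leaving out RA WT 3 gave 4, leaving out OIR KO 1 gave 6 and leaving out OIR KO 2 gave 5. Atf3 (1.73 ± 0.50, adjusted p = 0.0633), Gadd45b (2.19 ± 0.60, adjusted p = 0.0567) and Cyr61 (1.52 ± 0.48, adjusted p = 0.0807) were not called there, although the groups did not overlap. Each was called in some alternative. Without OIR KO 3, limma called Atf3 (adjusted p = 0.0422), Gadd45b (0.0275), Fosl2 (0.0349) and Maff (0.0367). Gadd45b was also called without trend or robust moderation (0.0451), and Cyr61 with the replicate block (0.0463). In all, 22 members lay higher in OIR KO without overlap (17.3% of all genes) and 2, Nr4a2 and Arc, lower (15.4% of all genes). A call against room air in one retinopathy group and not in the other does not show that the groups differ, since the direct comparison called none.

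**Figure D4:**
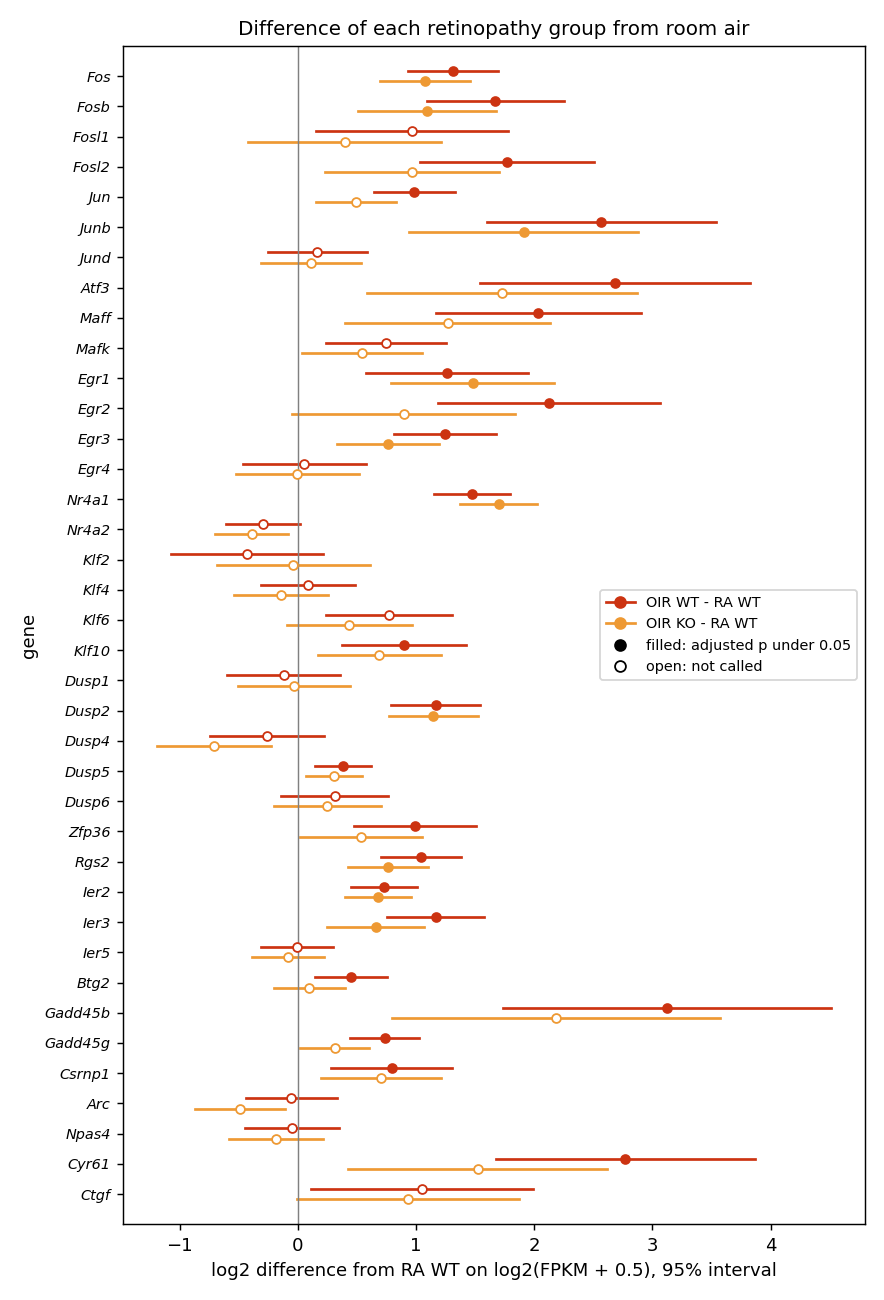
Difference of each retinopathy group from RA WT for the 38 tested genes, on log2(FPKM + 0.5), as points with 95% intervals, filled where the adjusted p was under 0.05. There are 23 filled points for OIR WT and 10 for OIR KO, and the pairs of Fos, Nr4a1, Dusp2 and Ier2 lie close together.

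The other genes of the pathway, 69 in 4 lists of which 65 were tested, were counted in the same way. In OIR WT against RA WT 14 rose and 3 fell, with a median of 0.09, where 8.04% of all tested genes were called higher and 7.92% lower. Among other AP-1, MAF and BACH factors 2 of 9 rose, the ATF2 relative Atf7 (0.62 ± 0.13, adjusted p = 0.0142) and the haem-sensing repressor Bach1 (0.41 ± 0.10, adjusted p = 0.0239). Of 21 upstream kinases and factors 2 rose and 1 fell. The ETS factor Elk3, an SRF partner, rose from 2.03 to 4.59 FPKM in the group means (0.99 ± 0.23, adjusted p = 0.0191), and the JNK kinases Mapk8 (0.34 ± 0.09, adjusted p = 0.0323) and Mapk10 (-0.84 ± 0.13, adjusted p = 0.00430) went in opposite directions.

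Other feedback genes rose in 5 of 16 and fell in 2. The receptor tyrosine kinase inhibitor Spry1 rose by 1.02 ± 0.25 (adjusted p = 0.0254), the EGR corepressor Nab2 by 0.88 ± 0.13 (adjusted p = 0.00368), the mRNA decay factor Zfp36l1 by 0.71 ± 0.15 (adjusted p = 0.0144) and the JNK phosphatase Dusp8 by 0.63 ± 0.14 (adjusted p = 0.0180). The 2 that fell, named after their values were seen, were the ERK pathway inhibitors Spred2 (-0.60 ± 0.18, adjusted p = 0.0475) and Spred3 (-0.48 ± 0.10, adjusted p = 0.0149). Other induced genes rose in 5 of 19, with Myc, the growth regulator, at 0.730, 0.860 and 0.508 FPKM in RA WT and 2.56, 1.79 and 3.17 in OIR WT (1.31 ± 0.25, adjusted p = 0.00946). Tiparp, an ADP-ribosyltransferase, rose by 0.93 ± 0.14 (adjusted p = 0.00374), the kinase Plk2 by 0.80 ± 0.23 (adjusted p = 0.0467) and the repressor Nfil3 by 0.66 ± 0.18 (adjusted p = 0.0332). Of these 15 genes, Mapk10, Nab2, Myc and Tiparp kept their calls without each library in turn, and the other 11 lost theirs without at least 1. In OIR KO against OIR WT 0 of the 65 were called by limma, and 8 had an unadjusted p under 0.05, of which 5 were lower, beside 9.91% and 4.75% of all tested genes.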

How the data were processed

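RNA from 9 mouse retina libraries was analysed. The authors deposited 1 table of FPKM, which scales fragments to the length of the gene and to the mapped total. HISAT2 and GRCm38 were used per the submitters' processing notes. The version, quantifier, annotation, strand setting and depth are not given in the sources used. FPKM totals ran from 344876 to 366536, and 26.8 to 29.4% of low values lay within 0.02 of a whole read step, so reads were not recovered and no count model was run. Values were taken as log2(FPKM + 0.5), after keeping entries with at least 0.5 FPKM in 3 of 9 libraries (15678 of 25108). limma 3.58.1 (R 4.3.3) fitted 1 mean for each group over the 9 libraries, with trend and robust moderation and two-sided tests, and Benjamini-Hochberg adjustment over all tested genes. The fit was tested on simulated data. Motifs were searched on both strands.

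Members and lists were chosen with earlier results of these data known. The text names every member, and of 4 pathway lists at most 4 called genes each with a mean of at least 1 FPKM, by largest change, besides Spred2 and Spred3, which were added after their values were seen. Alternatives were the pseudocount, the filter, the scaling, the moderation, the samples in the fit, a replicate block, a Y-linked covariate and leaving out each library.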

Additional observations from a re-analysis of the deposited data

How the results depend on the processing

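In OIR WT against RA WT the members called were 23, and 17 to 26 with 1 library left out. The calls over all genes were 2503, 1581 with a Y-linked covariate and 1031 to 2814 with 1 library left out. In OIR KO against OIR WT 0 members were called throughout, and the 21 calls over all genes became 13 with the stricter filter, 13 without trend or robust moderation, and 11 to 42 with 1 library left out. In OIR KO against RA WT the 10 members became 4 to 13 with 1 library left out, and the 1636 genes became 709 to 1791. Dusp4 was called lower there without RA WT 2 (adjusted p = 0.0155) and with the Y-linked covariate (0.0497).

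Deviations of libraries with the same number correlated from -0.353 to 0.134, and those with different numbers from -0.165 to 0.351. With 3 libraries a group, these values cannot settle whether the numbers pair the libraries. With a replicate block 21, 0 and 8 members were called in the 3 comparisons, and 1692, 8 and 1081 of all genes.

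In OIR WT against RA WT, the pathway genes that lost their call without a library, with the highest adjusted p, were Elk3 and Nfil3 without room air library 1 or 2 or OIR WT library 1 or 3 (0.0756 and 0.110), Spry1 without these or RA WT 3 (0.0857) and Plk2 without those 5 or OIR KO 1 (0.134). Spred2 lost it without any library but RA WT 2 (0.116), and Bach1 without room air library 2 or 3 or OIR WT library 1 or 2 (0.0783). For Mapk8 these and OIR WT 3 did so (0.117), for Dusp8 RA WT 2, OIR WT 1 or OIR WT 3 (0.0726), for Spred3 RA WT 2 or OIR WT 1 (0.0588), for Zfp36l1 RA WT 3 or OIR WT 3 (0.0549) and for Atf7 OIR WT 1 or OIR WT 3 (0.0597). The cause was not tested. The values of the named genes were on the same side of the threshold and in the same direction in 2746 cases, no longer past it in 179, newly past it in 26, and changed sign while not called in 58. The 2746 include values that were uncalled at first and stayed so, among them those of OIR KO against OIR WT. Only called values could be lost, so 179 beside 2746 does not measure how firm the calls were. Levels under 0.5 FPKM, as of Egr2 and Dusp2 in room air, limit the size of a difference that this scale can show.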
